A study of Mus musculus with 2 samples.

Results

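The SR genes encode serine/arginine-rich splicing factors, and 10 of them were followed here, namely *Srsf1*, *Srsf2*, *Srsf3*, *Srsf4*, *Srsf5*, *Srsf6*, *Srsf7*, *Srsf9*, *Srsf10* and *Srsf11*, out of 27998 genes in the count tables. They were taken by their names. The family was picked because *Srsf2* was lower in the *Mab21l1*-null library in every cell class of these same data, so the set was chosen by the measured level of *Srsf2*, which is given as a description. The question was whether the other 9 members follow *Srsf2*. *Srsf12* is also in the files, but it was near absent, with 34 UMIs in all cells of one library and 56 in the other.

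The cells came from the ocular area of C57BL/6J embryos at E9.25, with 26 somites. One embryo, from which a pair of optic areas was dissected, was wild type (WT), and one carried the *Mab21l1*-null mutation (KO). Each gave 1 library, made with the 10x Chromium 3′ system, which marks every captured transcript with the barcode of its cell and a unique molecular identifier (UMI). Neither genotype has a replicate, so no test was made, and genotype, embryo and library preparation cannot be told apart.

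The library labelled WT held 1680 cells past the filters, with 41880035 UMIs and a median of 21037 per cell. The library labelled KO held 2404 cells with 52430844 UMIs and a median of 18135. *Mab21l1* itself gave 849 UMIs in the WT library and 1706 in the KO library, or 20.3 and 32.5 per 1000000 UMIs (CPM), so over all cells its RNA does not check the labels. In the surface ectoderm it was lower in KO, with 107 and 38 UMIs, a ratio of 0.521 [0.350, 0.761], and in the optic vesicle higher, with 608 and 1371 UMIs, a ratio of 1.76 [1.60, 1.94]. The libraries are called by their labels. The libraries shared 15 cell barcodes. Mitochondrial genes took 2.53% of the UMIs in WT and 2.59% in KO, and ribosomal protein genes 28.3% and 28.5%.

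Cells were put in 7 classes by how many markers of a class they held, such as *Epcam* and *Krt8* for the surface ectoderm, *Rax* and *Six6* for the optic vesicle, *Twist1* and *Prrx1* for the head mesenchyme, *Pecam1* for the endothelium, *Hbb-y* for erythroid cells and *Sox10* for the neural crest. A class name below stands for the cells past the marker count of that class. The surface ectoderm, which holds the lens placode, had 61 WT and 46 KO cells, the optic vesicle 660 and 947, and the forebrain neural ectoderm 64 and 83. The head mesenchyme had 499 and 768 cells, the endothelium 64 and 101, the primitive erythroid cells 37 and 50, and the migrating neural crest 32 and 38. All markers were at least 2-fold above the other cells in 6 classes, and 7 of 10 were in the forebrain class. The classes were made with these same markers, so this is no separate check of their identity. The borders of the neural classes are the least sharp, since 358 cells lay 1 marker under the optic vesicle gate and 339 lay 1 under the forebrain gate. The libraries also held 246 and 365 cells in no class.

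SR proteins bind short motifs in exons through an RNA recognition motif and recruit the splicing machinery through a tail of repeated arginine and serine residues. Kinases of the SRPK and CLK families phosphorylate that tail, which controls import into the nucleus and release from nuclear speckles. Many SR genes also contain a poison exon, whose inclusion brings a premature stop codon and sends the transcript to nonsense-mediated decay, and the proteins act on this exon in their own and in each other's transcripts. The 3′ counts used here do not separate a productive transcript from one with a poison exon.

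On GRCm38, *Srsf2* (ENSMUSG00000034120) lies at chr11:116849901-116853094 on the minus strand and *Srsf9* (ENSMUSG00000029538) at chr5:115327177-115333080 on the plus strand. *Srsf1* also lies on chromosome 11, at chr11:88047373-88053755, while *Srsf3* (chr17:29032628-29043373) and *Srsf7* (chr17:80200080-80207307) lie far apart on chromosome 17. *Srsf4* (chr4:131873617-131901706) and *Srsf10* (chr4:135855747-135869908) share chromosome 4. *Srsf5* is at chr12:80945504-80950507, *Srsf6* at chr2:162931528-162937121 and *Srsf11* at chr3:158010473-158036639. The 200 bases before the start are shown for *Srsf2* and *Srsf9*, the members with the lowest ratios between the libraries, and for *Srsf6*, a member with nearly equal levels. They are RefSeq sequences on GRCm38.p6, 5′ to 3′ on the strand of the gene, and capitals mark every match, on either strand, to one of 3 motifs. These are the TATA box, searched as TATAAA, the box recognised by nuclear factor Y, searched as CCAAT, and the box of the Sp1 factor family, known as the GC box and searched as GGGCGG.
*Srsf2*, chr11:116853095-116853294, minus strand: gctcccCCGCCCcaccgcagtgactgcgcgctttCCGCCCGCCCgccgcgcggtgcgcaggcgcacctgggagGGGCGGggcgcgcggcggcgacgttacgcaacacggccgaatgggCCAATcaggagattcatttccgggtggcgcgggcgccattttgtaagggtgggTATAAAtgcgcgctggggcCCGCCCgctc
*Srsf9*, chr5:115326977-115327176, plus strand: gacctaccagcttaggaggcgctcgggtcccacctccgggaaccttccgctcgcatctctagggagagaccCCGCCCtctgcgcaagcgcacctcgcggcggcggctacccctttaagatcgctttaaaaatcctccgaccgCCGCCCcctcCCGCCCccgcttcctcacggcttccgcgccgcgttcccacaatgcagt
*Srsf6*, chr2:162931308-162931507, plus strand: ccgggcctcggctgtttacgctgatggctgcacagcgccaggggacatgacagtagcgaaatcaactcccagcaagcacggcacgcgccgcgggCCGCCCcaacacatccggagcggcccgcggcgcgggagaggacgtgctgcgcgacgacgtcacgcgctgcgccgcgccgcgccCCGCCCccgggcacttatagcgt
The *Srsf2* window held a match to each of the motifs, with 5 GC boxes, of which a pair overlaps, while *Srsf9* held 3 and *Srsf6* held 2 GC boxes and neither of the other motifs. For the counts over members, the window before the first listed RefSeq start of each was used. The window of *Srsf10* lies within its annotated gene. Those of *Srsf3*, *Srsf4*, *Srsf7*, *Srsf10* and *Srsf11* overlap annotated exons of the same gene, so they are not all upstream of every transcript. A GC box was in the windows of 9 of the 10 members, against 31.3% of 32505 distinct mouse windows of this length. The CCAAT motif was in 3 members, namely *Srsf2*, *Srsf3* and *Srsf10*, against 29.3% of all windows, and the TATA box was in *Srsf2* and *Srsf3*, against 9.88%. The ETS factor motif, searched as CCGGAAG, was in *Srsf5* and *Srsf11*, against 6.34% of all windows. The E-box, searched as CACGTG, was in no member, against 5.28% of all windows. The same held for the cAMP response element, searched as TGACGTCA, against 1.48%. The GC content was 72.5% for *Srsf2* and *Srsf6* and 67% for *Srsf9*, above the median of 53% over all windows. None of these matches set *Srsf2* and *Srsf9* together apart from the rest, and a match is a description of letters and not of a bound site.

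All 10 members were expressed in all 7 classes of both libraries. Levels are in CPM, and because a 3′ library counts each transcript once, they are not divided by transcript length. Brackets give the 95% interval of counting error, exact Poisson for a level and exact conditional binomial for a ratio. *Srsf3*, which encodes the smallest family member and an adaptor for mRNA export, was the most abundant member in every class. In the WT library it ranged from 388 CPM [356, 423] in erythroid cells to 1205 [1145, 1268] in the forebrain. *Srsf4*, whose protein has the longest arginine/serine tail, was the least abundant in every class, from 40.6 CPM [30.5, 52.9] in erythroid cells to 84.4 [69.0, 102] in the forebrain.

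The classes kept a similar order from gene to gene. In both libraries each of the 10 members was lowest in the primitive erythroid cells, where globin made up 33.3% of the UMIs in WT and 34.9% in KO. The highest class was the forebrain or the head mesenchyme for every member in both libraries. The span over classes in WT was widest for *Srsf1*, from 87.2 to 359 CPM, or 4.12-fold, and narrowest for *Srsf6*, from 199 to 381 CPM, or 1.92-fold. Without the erythroid cells the spans in WT fell to between 1.2-fold for *Srsf5* and 2.2-fold for *Srsf3*. In the forebrain of WT, *Srsf2* at 633 CPM [589, 679] and *Srsf7* at 596 [554, 641] did not differ beyond counting error.

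**Figure D1:**
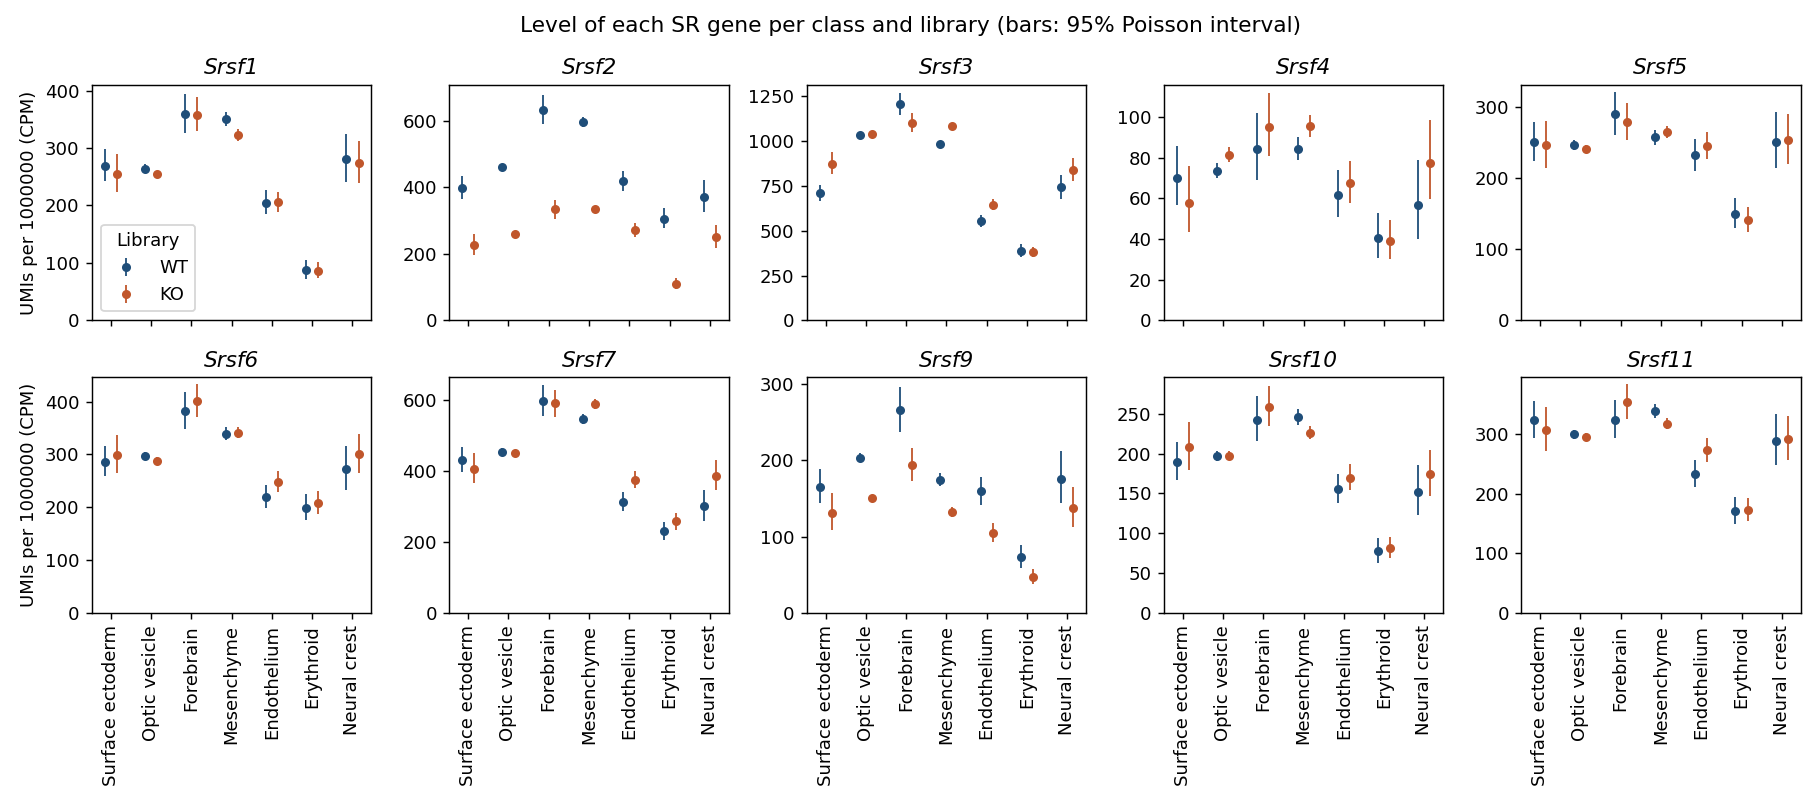
Level of each SR gene in CPM (y axes, linear from 0, with their own scale per gene) in the 7 cell classes (x axes), with WT in blue, KO in orange and bars for the 95% Poisson interval. The WT and KO points lie apart in every class for *Srsf2*, from 306 against 109.8 CPM in erythroid cells to 633 against 334 in the forebrain, and WT lies above KO in every class for *Srsf9*.

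*Srsf2*, the gene of a splicing factor concentrated in nuclear speckles and known as SC35, had 20504 UMIs in WT and 14475 in KO over all kept cells. Its level was 489.6 CPM [483, 496] in WT and 276 [272, 281] in KO, a ratio of KO to WT of 0.564 [0.552, 0.576]. The optic vesicle had 462 and 259.8 CPM, a ratio of 0.562 [0.545, 0.580], and the head mesenchyme 596 and 334 CPM, a ratio of 0.560 [0.538, 0.583]. These are the largest classes. The surface ectoderm had 399 and 227 CPM, a ratio of 0.570 [0.483, 0.670], and the forebrain 633 and 334 CPM, a ratio of 0.527 [0.471, 0.589].

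The ratio of *Srsf2* was farthest from 1 in the blood cells. Primitive erythroid cells had 306 CPM [277, 337] in WT and 109.8 [94.9, 126] in KO, a ratio of 0.359 [0.301, 0.427]. The endothelium had 418 and 272 CPM, a ratio of 0.651 [0.586, 0.722], and the neural crest 372 and 250.0 CPM, a ratio of 0.672 [0.556, 0.813]. The erythroid interval lay under those of all the other classes. The endothelium interval lay above those of the optic vesicle and the mesenchyme and overlapped those of the ectoderm and the forebrain, and the neural crest interval overlapped those of the ectoderm, optic vesicle, forebrain, mesenchyme and endothelium. With cells thinned to equal depth the ratio was 0.446 in the erythroid cells, 0.591 in the neural crest, 0.651 in the endothelium and 0.693 in the ectoderm. These thinned ratios come from a random draw and were given no interval.

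*Srsf9*, which encodes a small SR protein with an RNA recognition motif and a degenerate copy of it, was the one other member under a ratio of 0.8 in any class, and it was so in all 7. With all cells thinned to equal depth it stayed so in 5, while the ratio was 0.95 in the surface ectoderm and 0.931 in the neural crest. These thinned ratios come from a random draw and were given no interval. They rest on few UMIs, with means of 1.20 and 1.14 per cell in 61 WT and 44 KO ectoderm cells. A change of the ratio with depth is thus not shown. At equal depth *Srsf4* was also under 0.8 in the surface ectoderm, at 0.624, from means of 0.656 UMIs per WT cell and 0.409 per KO cell. Over all kept cells *Srsf9* had 7950 UMIs in WT and 7338 in KO, or 189.8 CPM [186, 194] and 140.0 [137, 143], a ratio of 0.737 [0.714, 0.761]. The optic vesicle had 203 and 150.1 CPM, a ratio of 0.738 [0.706, 0.772]. The head mesenchyme had 175 and 133 CPM, a ratio of 0.759 [0.709, 0.813], and the forebrain 265 and 193 CPM, a ratio of 0.728 [0.621, 0.853]. The levels of *Srsf9* in KO were thus lower in the neural and the mesenchymal classes alike.

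In the smaller classes the intervals of *Srsf9* were wider. The endothelium had 159 and 105 CPM, a ratio of 0.658 [0.555, 0.780], and the erythroid cells 72.9 and 46.7 CPM, a ratio of 0.641 [0.472, 0.868]. The surface ectoderm had 166 and 131 CPM, a ratio of 0.793 [0.629, 0.994], just inside the limit of 0.8, while the ratio just outside it was that of *Srsf4* in the same class, at 0.827 [0.579, 1.17]. In the neural crest, with 176 and 137 CPM, the ratio of 0.780 had an interval of [0.595, 1.02], which holds 1. The interval of *Srsf2* lay wholly under that of *Srsf9* in 4 of the 7 classes.

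The summed level of the 9 members besides *Srsf2* was 3023 CPM [3006, 3039] in WT and 3026 [3011, 3041] in KO, a ratio of 1.0 [0.994, 1.01] over all kept cells. By class this ratio ran from 0.969 [0.932, 1.01] in the forebrain to 1.10 [1.05, 1.14] in the endothelium. Over the 8 members other than *Srsf2* and *Srsf9* and the 7 classes there were 56 ratios. None was at or under 0.8, and 2 were at or over the inverse of 0.8, both in the neural crest, namely *Srsf4* at 1.36 [0.891, 2.10] and *Srsf7* at 1.28 [1.07, 1.54]. The interval held 1 for 40 of the 56, lay under 1 for 5 and over 1 for 11. The whole interval lay between 0.8 and its inverse for 35.

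**Figure D2:**
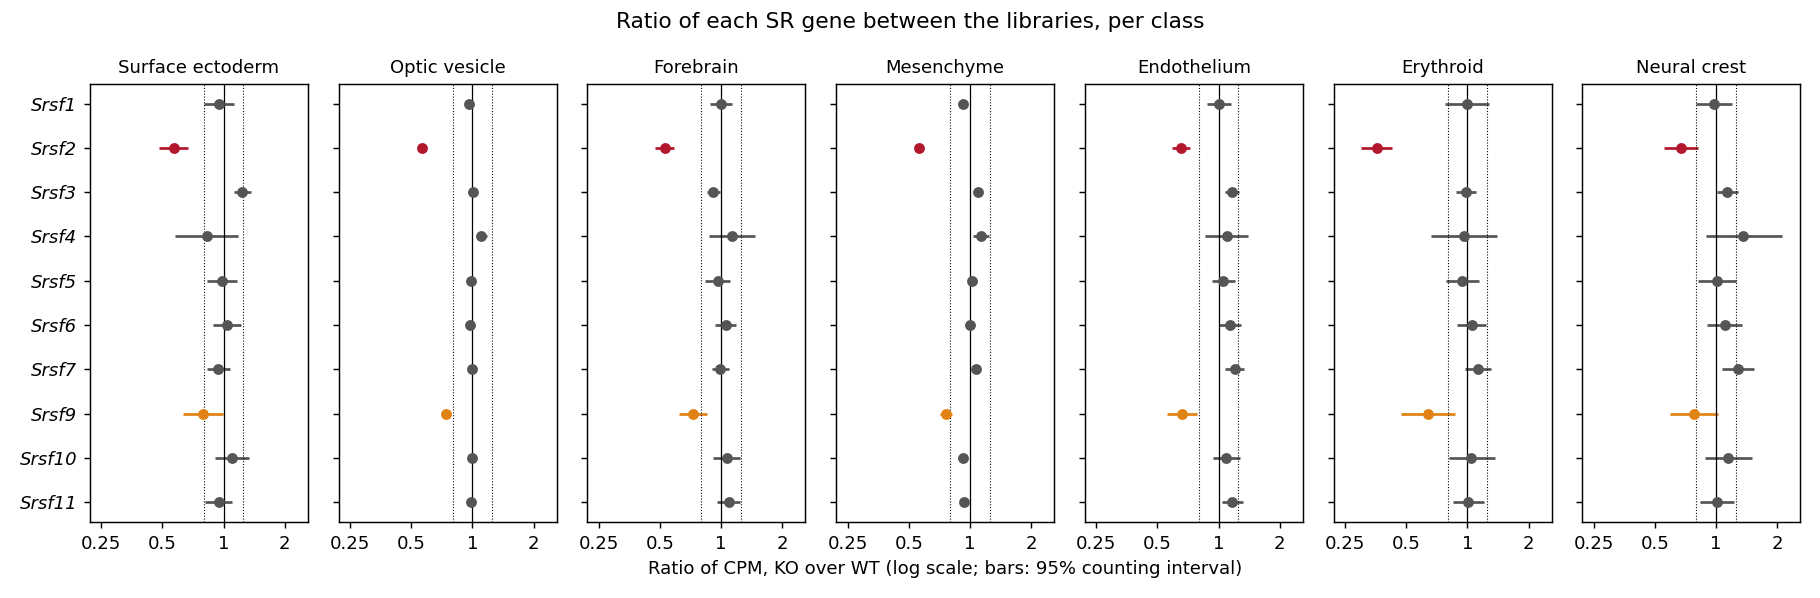
Ratio of CPM, KO over WT (x axes, log scale), of each SR gene (rows) in the 7 classes (panels), with bars for the 95% counting interval, a solid line at 1 and dotted lines at 0.8 and its inverse. The points of *Srsf2* (red, 0.359 to 0.672) and *Srsf9* (orange, 0.641 to 0.793) lie left of 0.8 in every panel, while the other 8 members (grey) lie between 0.827 and 1.36.

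Among the members that carry mRNA out of the nucleus, *Srsf1*, *Srsf3* and *Srsf7* did not share one direction. *Srsf1*, the founding member of the family, had 279.7 CPM in WT and 268 in KO over all kept cells, a ratio of 0.958 [0.935, 0.982], and ran from 0.920 [0.879, 0.963] in the mesenchyme to 1.0 [0.874, 1.15] in the endothelium. *Srsf3* had 958 and 1004 CPM, a ratio of 1.05 [1.03, 1.06]. It was higher in KO beyond counting error in the surface ectoderm, with 709 CPM [665, 756] and 875 [815, 938], a ratio of 1.23 [1.12, 1.36]. The cells of this class were not matched for cell cycle phase, which is given below. *Srsf3* was lower in the forebrain, at 0.916 [0.854, 0.982], and close to equal in the optic vesicle, at 1.01 [0.988, 1.02]. *Srsf7*, whose protein has a zinc knuckle, had 464 and 479.5 CPM, a ratio of 1.03 [1.01, 1.05], with 1.20 [1.08, 1.33] in the endothelium and 0.991 [0.964, 1.02] in the optic vesicle.

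The members with an additional degenerate RNA recognition motif besides *Srsf1* and *Srsf9* are *Srsf4*, *Srsf5* and *Srsf6*. *Srsf4* had 74.8 CPM in WT and 83.3 in KO over all kept cells, a ratio of 1.11 [1.06, 1.17], with 1.11 [1.04, 1.19] in the optic vesicle and 1.13 [1.03, 1.24] in the mesenchyme. *Srsf5* had 245 and 248 CPM, a ratio of 1.01 [0.984, 1.04], and *Srsf6* 302 and 304 CPM, a ratio of 1.01 [0.984, 1.03]. The interval of *Srsf5* held 1 in all 7 classes. For *Srsf6* it did so in all but the endothelium, where 219 and 248 CPM gave a ratio of 1.14.

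*Srsf10*, whose protein becomes a general repressor of splicing when it loses its phosphates, had 204 CPM in WT and 201 in KO, a ratio of 0.985 [0.957, 1.01]. *Srsf11*, an SR-related protein that contacts the factors at the 3′ splice site, had 304 and 298 CPM, a ratio of 0.980 [0.957, 1.0]. Both were lower in the KO mesenchyme, at 0.921 [0.871, 0.973] and 0.938 [0.895, 0.983]. *Srsf11* was higher in the KO endothelium, with 234 and 273 CPM, a ratio of 1.17 [1.03, 1.32].

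The make-up of the family over all kept cells differed between the libraries mainly through *Srsf2*. It was the second most abundant member after *Srsf3* over all kept WT cells and gave 13.9% of the UMIs of the 10 members. In KO it was in place 5, behind *Srsf3*, *Srsf7*, *Srsf6* and *Srsf11*, and gave 8.36%. In the erythroid cells its share of the family was 17.8% in WT and 7.20% in KO. *Srsf9* gave 5.40% and 4.24% over all kept cells. The summed level of all 10 over all kept cells was 3512 CPM in WT and 3302 in KO, a difference of 211 CPM, against 214 CPM for *Srsf2* alone. By class the 2 differences were 416 and 299 CPM in the forebrain, 274 and 202 in the optic vesicle, and 212 and 262 in the mesenchyme. They were 83.1 and 171 CPM in the surface ectoderm, and both were 196 in the erythroid cells. In the endothelium and the neural crest the sum was higher in KO, while *Srsf2* was lower.

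These ratios are read against those of all genes. Of the 13190 genes with at least 50 UMIs over all kept cells, 7.05% were at or under a ratio of 0.8 (lower in KO) and 4.99% at or over the inverse of 0.8 (higher in KO), and the median ratio was 1.0. The corresponding shares were 16.7% lower and 14.2% higher in the surface ectoderm, 5.90% and 6.83% in the optic vesicle, and 10.7% and 15.3% in the forebrain. They were 8.45% and 7.85% in the mesenchyme, 13.0% and 12.8% in the endothelium, 15.7% and 9.03% in the erythroid cells, and 13.0% and 21.5% in the neural crest. All 10 members passed the minimum of 50 UMIs in every class. Of the 9 members besides *Srsf2*, 1 was lower in every class, always *Srsf9*, and in the neural crest 2 were higher. In any single class these counts do not stand out from the shares of all genes.

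Low ratios were less common among abundant genes. Of the 1387 genes at or over 100 CPM over all kept cells, 29 (2.09%) were at or under 0.8. None of these had a ratio under that of *Srsf2*, while 14 had one under that of *Srsf9*. *Srsf2* was picked for its lower level in KO, so its own place is only a description. The ratios of *Actb* (0.564) and *Ptms* (0.568) lay within its counting interval. By class, the share of genes at or over 100 CPM with a ratio at or under 0.8 ran from 2.57% in the optic vesicle to 7.39% in the surface ectoderm. No gene at or over 100 CPM lay under *Srsf2* in the optic vesicle, the forebrain or the erythroid cells. In the mesenchyme 2 did, in the surface ectoderm 10, in the endothelium 11 and in the neural crest 17. Under *Srsf9* there were between 8 such genes in the erythroid cells and 97 in the surface ectoderm. A low ratio in every class was also uncommon. Of the 2644 genes with at least 50 UMIs in all 7 classes, 9 (0.340%) were at or under 0.8 in each of the 7, among them *Srsf2*, for which the family was picked, and *Srsf9*. The place of *Srsf9* among them rests on the surface ectoderm (0.793) and the neural crest (0.780). At equal depth its ratio was over 0.8 in both of these classes, but from few UMIs of a random draw and without an interval. None was at or over the inverse of 0.8 in all 7, and 116 (4.39%) were under 1 in all 7.

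**Figure D3:**
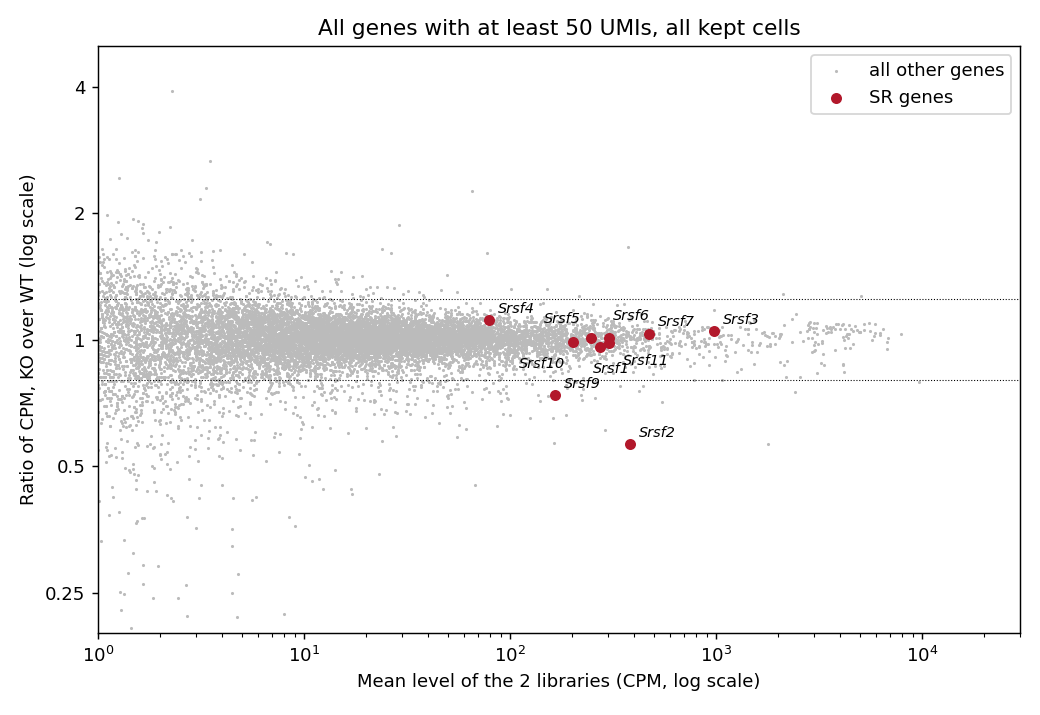
Ratio of CPM, KO over WT (y axis, log scale), against the mean level of both libraries in CPM (x axis, log scale) for genes with at least 50 UMIs over all kept cells (grey points), with the 10 SR genes in red and dotted lines at 0.8 and its inverse; 933 of the 13190 genes lie outside the drawn axes. *Srsf2* (0.564) and *Srsf9* (0.737) lie below the lower dotted line and the other 8 members between the lines.

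The 9 genes, in order of their geometric mean ratio over the classes, began with *Srsf2* at 0.548, *Jund* at 0.640, *Gm6133* at 0.653, *Rpl36-ps3* at 0.660 and *Rpl13-ps3* at 0.689. *Jund* encodes an AP-1 transcription factor, and *Gm6133*, *Rpl36-ps3* and *Rpl13-ps3* are predicted genes or ribosomal pseudogenes whose reads may be shared with near-identical copies. The remaining genes were *Sept2*, *Gnas*, *Rps28* and *Srsf9*, the latter at 0.726. The genes whose ratios over the 7 classes were nearest to those of *Srsf2*, by root mean square distance on the log2 scale, were *Suds3* at 0.259, *Sept2* at 0.374, *Gnas* at 0.390, *Smarca5* at 0.391 and *Cbx3* at 0.394. *Srsf9* lay at 0.468, and the nearest of the other 8 members was *Srsf1* at 0.873. *Suds3*, a subunit of the Sin3 histone deacetylase complex, had ratios from 0.362 to 0.824.

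The lower level was spread over the cells. To compare cells at equal depth, UMIs were drawn at random down to 8000 in each cell, and the 99 KO cells and 0 WT cells with fewer were dropped. *Srsf2* then had a mean of 4.13 UMIs per WT cell and 2.31 per KO cell, and a median of 4 and 2. It was detected in 97.6% of WT cells [96.8, 98.3] and 88.3% of KO cells [86.9, 89.6], against 99.8% and 97.3% before thinning. Brackets on shares of cells are exact binomial intervals over the cells of a library and give no spread between embryos. *Srsf9* had a mean of 1.51 and 1.11 UMIs and was detected in 77.3% [75.2, 79.2] and 64.9% [62.9, 66.9] of the cells, against 94.6% and 89.3% before thinning. *Srsf3* had a mean of 7.81 and 8.37 UMIs and *Srsf7* of 3.85 and 4.17. As every class expresses these genes, no class served as a measure of their free RNA in the droplets. Globin was higher in KO in each class outside the erythroid cells. It took from 0.0184% (surface ectoderm) to 0.0264% (neural crest) of the UMIs in WT. In KO it took from 0.0409% (surface ectoderm) to 0.0788% (endothelium). The part of free RNA in the ratios of the SR genes was not tested.

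**Figure D4:**
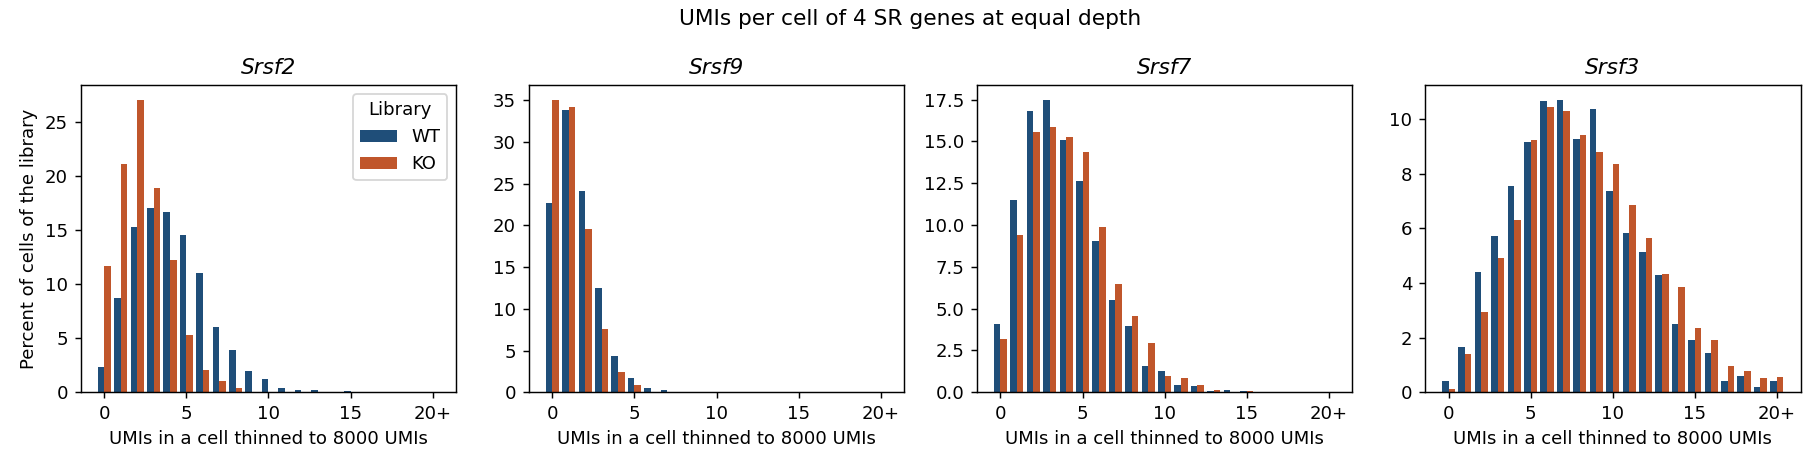
Percent of the cells of each library (y axes, from 0) by the number of UMIs of a gene in a cell (x axes) after each cell was thinned to 8000 UMIs, with WT in blue and KO in orange. The KO cells lie to the left of the WT cells for *Srsf2* (median 2 against 4) and have more cells at 0 for *Srsf9*, while those of *Srsf7* and *Srsf3* lie slightly to the right.

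The cell cycle was scored in each cell to compare the libraries within a phase. *Srsf2* was highest in cells scored as S phase in both libraries, with 555 CPM in WT and 307 in KO. Its ratio was 0.537 [0.511, 0.565] in G1, 0.552 [0.534, 0.571] in S and 0.593 [0.573, 0.613] in G2M, and the interval of G2M lay above the others. This pool mixes classes, and G1 held 86.5% of the WT and 92.0% of the KO erythroid cells. In the optic vesicle the ratios were 0.565 [0.518, 0.615], 0.557 [0.530, 0.585] and 0.575 [0.549, 0.604], whose intervals overlapped. In the mesenchyme they were 0.565 [0.508, 0.627], 0.518 [0.488, 0.550] and 0.599 [0.561, 0.639], so that G2M lay above S but overlapped G1. For *Srsf9* over all kept cells the ratios were 0.734, 0.746 and 0.735, whose intervals overlapped. The phases had similar shares over all kept cells, with G2M at 39.8% [37.5, 42.2] in WT and 41.0% [38.9, 43.0] in KO. The largest classes differed in opposite directions. S took 45.3% in WT and 39.3% in KO in the optic vesicle, and 41.5% and 46.4% in the mesenchyme. In the surface ectoderm G2M took 32.8% [21.3, 46.0] in WT and 56.8% [41.0, 71.7] in KO. Over all kept cells *Srsf3* was at 760, 984 and 1033 CPM in G1, S and G2M of WT. In KO it was at 753, 1037 and 1085 CPM. The part of the phases in the ectoderm ratios, that of *Srsf3* among them, was not tested.

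**Figure D5:**
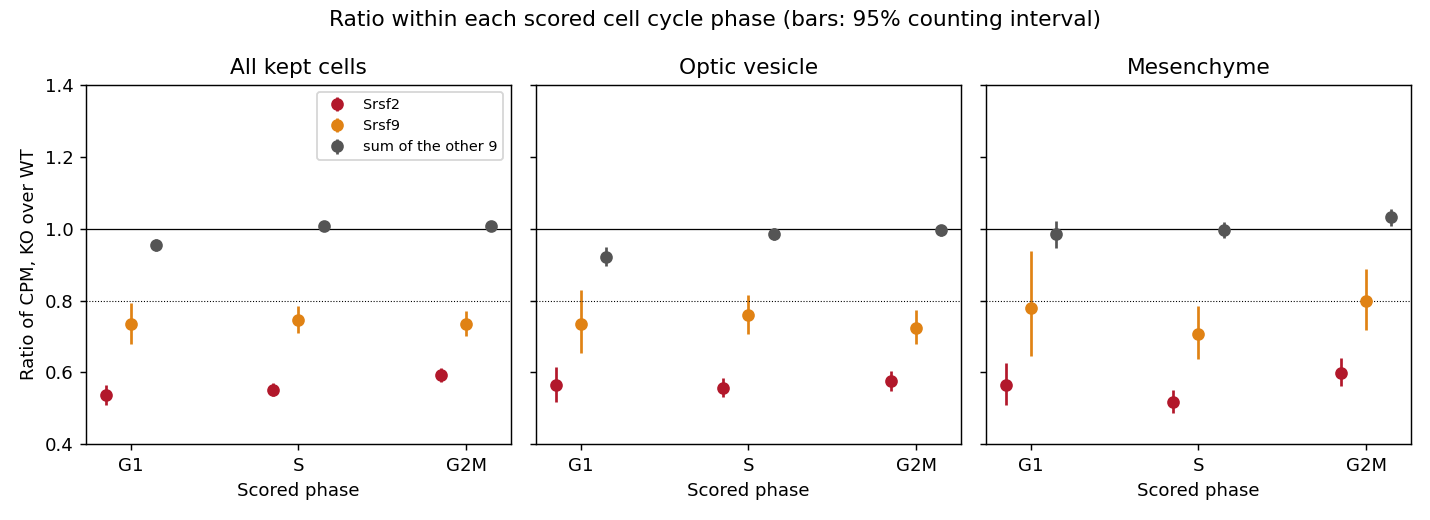
Ratio of CPM, KO over WT (y axis, linear), of *Srsf2* (red), *Srsf9* (orange) and the sum of the 9 members besides *Srsf2* (grey) in cells scored as G1, S and G2M (x axes), for all kept cells, the optic vesicle and the mesenchyme, with bars for the 95% counting interval, a solid line at 1 and a dotted line at 0.8. *Srsf2* lies between 0.518 and 0.599 in every panel and phase, *Srsf9* between 0.707 and 0.798 and the sum between 0.922 and 1.03.

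Since *Mab21l1* is studied for its part in the lens placode, the surface ectoderm was split by placode markers. These were *Pax6*, *Six3*, *Sox2*, *Maf*, *Pitx3*, *Foxe3* and *Meis2*. The authors report *Pax6*, *Six3*, *Maf* and *Pitx3* as lower in the null ectoderm, so a KO placode cell may fall in the other ectoderm. The split thus does not give matched groups of cells in WT and KO. The 30 WT and 15 KO cells with at least 2 more placode than other ectoderm markers had 426 and 243 CPM of *Srsf2*, a ratio of 0.572 [0.452, 0.718]. The remaining 31 WT and 31 KO ectoderm cells had 368 and 214 CPM, a ratio of 0.583 [0.459, 0.736]. For *Srsf9* the ratios were 0.807 [0.582, 1.11] and 0.797 [0.568, 1.11], and both intervals held 1. In the placode cells *Srsf4*, at 0.702 [0.401, 1.19], and *Srsf1*, at 0.793 [0.620, 1.01], were under 0.8, with intervals that held 1, against 0.946 [0.578, 1.53] and 1.16 [0.911, 1.48] in the other ectoderm. *Srsf3* was higher in KO in both, at 1.32 [1.15, 1.51] and 1.16 [1.02, 1.33]. The intervals of placode and other ectoderm overlapped for each of these 5 genes. Such an overlap does not decide whether the ratios differ, and a difference between them was not tested.

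Some exons of *Srsf2* overlap those of *Mettl23* and *Mfsd11* on the other strand. How the counting treated strand is not given in the sources used here, so reads of these genes may not be told apart. Over all kept cells *Mettl23* had 60.4 CPM in WT and 66.1 in KO, a ratio of 1.09 [1.04, 1.15], and *Mfsd11* had 8.72 and 9.40 CPM, a ratio of 1.08 [0.940, 1.24]. By class the ratio of *Mettl23* ran from 0.900 [0.629, 1.28] in the surface ectoderm to 1.69 [1.07, 2.71] in the neural crest. The part of overlapping reads in the ratio of *Srsf2* was not tested. No annotated exon overlaps those of *Srsf9*. Exons of *Srsf1* overlap *Gm11508* and those of *Srsf4* overlap *Gm12992*, both on the other strand, and the latter has no row in the count tables.

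The regulators of SR proteins did not show the ratio of *Srsf2* in the libraries as a whole. Of the SR protein kinases and phosphatases, 11 of 12 were measured and none was past either limit, with a median ratio of 0.980. The ends of this list were the phosphatase subunits *Ppp1cb* (0.925) and *Ppp1cc* (0.927) and the kinases *Clk3* (1.04) and *Srpk2* (1.05). Of 9 genes of SR protein import and mRNA export, 1 was lower, *Alyref*, an mRNA export adaptor of the TREX complex, with 37.4 CPM in WT and 26.3 in KO, a ratio of 0.704 [0.655, 0.758]. It was followed by the importin *Tnpo1* (0.914), and the highest were *Tnpo3* (1.03), the importin of SR proteins, and *Nxf1* (1.05), the export receptor. The median of this list was 0.984.

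Of 24 SR-related proteins, 1 was lower and none higher, with a median of 0.979. This was *Arglu1*, with 134 and 106 CPM, a ratio of 0.788 [0.759, 0.818], followed by the speckle scaffold *Son* at 0.890 [0.872, 0.908], and the highest were *Thrap3* (1.06) and *Acin1* (1.07). Over all kept cells none of 27 hnRNP genes, whose proteins often oppose SR proteins at exons, was past a limit, and their median was 0.940. *Hnrnpl* was lowest, with 98.0 and 78.7 CPM, a ratio of 0.803 [0.769, 0.839], followed by *Hnrnpa0* (0.884), and the highest were *Hnrnpll* (1.02) and *Raly* (1.03).

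Over all kept cells none of 27 core snRNP and SF3 genes was past a limit, and their median was 1.04. *Snrpg*, a ring protein of the snRNP core, had 869 and 696 CPM, a ratio of 0.801 [0.789, 0.813], followed by *Snrpf* (0.911), and the highest were *Prpf31* (1.09) and *Sf3a2* (1.14). None of 10 genes of nonsense-mediated decay was past a limit either, with a median of 1.04, from *Upf2* (0.862) and *Upf1* (0.949) to *Upf3a* (1.14) and *Smg9* (1.15). The median over all genes was 1.0, and each of these counts stands beside the 7.05% and 4.99% of all genes past the limits.

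Some classes held more genes of these lists past a limit than all kept cells did, and the shares of all genes given above by class are the background. Of the hnRNP genes, 2 of 27 were lower in the surface ectoderm, 1 in the optic vesicle, 1 in the endothelium, 5 of 26 in the erythroid cells and 3 of 27 in the neural crest, while 1 was higher in the forebrain, 1 in the endothelium and 3 in the neural crest. Of the import and export genes, 3 of 8 were lower in the ectoderm and 3 of 7 in the erythroid cells, and 1 in each of the other classes. In the other direction, 1 was higher in each of the forebrain, mesenchyme, endothelium, erythroid cells and neural crest. Of the SR-related genes, 3 of 24 were lower in the erythroid cells and 4 of 24 higher in the neural crest, with at most 2 past a limit in any other class. Of the core snRNP and SF3 genes, 3 of 27 were lower and 4 higher in the ectoderm, 3 lower and 1 higher in the erythroid cells, and 6 of 25 higher in the neural crest. The kinases and phosphatases had at most 1 lower and 2 higher gene in a class, and the decay genes at most 3 in each direction.

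Genes that respond to cell dissociation and RNAs kept in the nucleus were counted beside the family. Of 12 measured dissociation and heat stress genes, 1 was lower, *Jund*, with 151 and 98.2 CPM, a ratio of 0.651 [0.627, 0.676], followed by *Hspa8* (0.977). Another 2 were higher, *Atf3* at 1.35 [1.0, 1.84] and *Fos* at 1.80 [1.09, 3.04], both at under 3 CPM in each library, and the median was 1.07. By class, 3 of 7 stress genes were lower in the erythroid cells, where 15.7% of all genes were. In the neural crest 4 of 7 were higher, against 21.5% of all genes. The other classes had at most 2 in either direction. Of 4 nuclear RNAs, 1 was lower over all kept cells, *Neat1*, with 95 and 44 UMIs, or 2.27 and 0.839 CPM, a ratio of 0.370 [0.253, 0.534]. In no class did *Neat1* reach the minimum number of UMIs. Its ratios by class, from these few UMIs, ran from 0.486 to 1.46, all above the ratio over all kept cells. A lower level of *Neat1* within the classes is thus not shown, and the part of the make-up of the libraries in its ratio was not tested. *Malat1* was at 0.953 [0.947, 0.959], *Meg3* at 0.982 and *Kcnq1ot1* at 1.03. The part of these genes in the ratios of *Srsf2* and *Srsf9* was not tested.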

How the data were processed

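The authors counted UMIs with Cell Ranger on mm10 (GRCm38), aggregated the libraries, which can subsample reads, and deposited whole-number counts per gene and cell, not normalized. The methods state 4084 cells; the files hold 4203 barcodes, of which the stated filter, with its mitochondrial limit read as 5%, left 4084. Kept cells had 1500 to 8000 genes.

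A class needed at least 5 of 12 markers (surface ectoderm), 4 of 8 (optic vesicle), 3 of 10 (forebrain), 6 of 12 (mesenchyme), 6 of 10 (endothelium), 9 of 10 (erythroid cells) or 4 of 7 (neural crest). These numbers were set after the data were seen. Cells past several gates outside the neural classes, 18 in all, were left out, as were mesenchyme cells past the optic vesicle gate (103), and 18 ectoderm cells were also past the optic vesicle gate. Doublets were not called. Summed UMIs per class and library were divided by the class total and are given per 1000000 (CPM). Past a limit means a ratio at or under 0.8 or at or over its inverse, among genes with at least 50 UMIs in the class. Intervals of levels and ratios, and shares of genes past a limit, cover counting error only. The binomial intervals of cell shares take the cells of a library as separate draws. They cover neither the thinning draw nor variation between embryos. Named genes were all members, the 2 lowest and 2 highest of each list, and the 5 leading genes lower in every class. Also named were the 5 nearest to *Srsf2* and genes with overlapping exons. *Sept2*, *Gnas*, *Rps28* and *Srsf9* complete a count of 9, and *Actb* and *Ptms* were named for ratios close to that of *Srsf2*. Phases used 43 S and 52 G2M genes of Seurat 5.3.0 (R 4.3.3) on cells thinned to 8000 UMIs. Of 27998 gene identifiers 27645 matched GENCODE M21, and all 10 members matched RefSeq promoters. Python 3.11.15, scipy 1.17.1, numpy 2.4.6, matplotlib 3.10.9 and pandas 2.3.3 were used. The ratio and its interval were tested on simulated Poisson counts, the model that the interval assumes. These counts held no variation between cells, embryos or libraries, so they check the computation only. The members and lists were chosen with earlier results of these data known.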

Additional observations from a re-analysis of the deposited data

How the results depend on the processing

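Alternatives changed the cell filter, the gates, the class assignment, the weight of cells, the scale, the depth, the cells with most UMIs and the phase. *Srsf2* was at or under 0.8 in all 78 of the resulting values over 8 cell sets (0.353 to 0.693) and *Srsf9* in 69 of 78 (0.596 to 0.95, the highest in thinned ectoderm), with all 78 under 1. The other 9 values of *Srsf9*, from 0.816, were in the ectoderm (5) and the neural crest (4). The sum of the other 9 ranged from 0.922 to 1.15. Among the single members, *Srsf4* was at or under 0.8 in 2 of 78 values, down to 0.624 in thinned ectoderm. It was at or over the inverse of 0.8 in 9, up to 1.79 in thinned neural crest. *Srsf7* was at or over that limit in 6 values, *Srsf6* in 2, and *Srsf5* and *Srsf11* in 1 each, and these were never at or under 0.8. *Srsf1*, *Srsf3* and *Srsf10* had no value past a limit.

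The values that follow lay outside the counting interval of the main value. The counting error of the alternative itself was not part of this rule, so a listed value need not differ beyond counting error. For *Srsf2* they were 0.537 in G1 and 0.593 in G2M over all kept cells. The optic vesicle gave 0.541 as a mean over cells and 0.540 without the 5% of cells with most UMIs. The mesenchyme gave 0.518 in S and 0.599 in G2M. Thinned cells gave 0.693 in the ectoderm and 0.446 in the erythroid cells. For *Srsf9* it was 0.707 in S in the mesenchyme. The own intervals of *Srsf2* in G1 over all kept cells [0.511, 0.565] and of *Srsf9* in S in the mesenchyme [0.637, 0.784] held the main values, 0.564 and 0.759. For the sum, all kept cells gave 1.02 as a mean over cells, 1.02 thinned, 1.01 without the top 5%, 0.955 in G1 and 1.01 in G2M. The optic vesicle gave 0.966 with stricter gates, 1.0 as a mean over cells, 0.989 without mitochondrial, ribosomal and globin genes, 0.989 thinned, 0.996 without the top 5%, 0.922 in G1 and 0.995 in G2M. The mesenchyme gave 0.984, 0.996 and 1.03 in G1, S and G2M, the forebrain 1.04 by nearest profile and the endothelium 1.15 in G2M. The cause was not tested.

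Over all kept cells, 930 genes were lower and 658 higher; a fold of 1.5 left 312 and 164, with 0 of the other 9 members lower (1 before), and a minimum of 20 UMIs gave 1405 and 1049. These counts were not rerun by class.

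Some classes had fewer than 20 cells per library under the stricter gates or in a phase and gave no value. With 1 library per genotype, none was left out. No paired analysis was possible because each genotype has 1 library and the result comes from no test.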

Other observations

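The cells in no class, 246 in the WT and 365 in the KO library, had 484 and 275 CPM of *Srsf2*, a ratio of 0.568 [0.534, 0.604], and 196 and 141 CPM of *Srsf9*, a ratio of 0.721 [0.658, 0.790]. The 17 WT and 6 KO macrophage-like cells had 401 and 216 CPM of *Srsf2*, a ratio of 0.539 [0.380, 0.747].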
